A study of Mus musculus with 35 samples.

Results

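The genes Mpo, Elane, Prtn3, Ctsg and Ms4a3, which mark the promyelocyte stage of neutrophil development, were examined in RNA-seq data of mouse hematopoietic stem and progenitor cells (HSPCs) from bone marrow. They are 5 of the 11982 gene names in the deposited table, and all 5 were found there under these symbols. The members were selected on values measured in these same libraries, with the comparison of genotypes known, so their levels and differences are given as a description and without a test. The data comprise 2 libraries from wild-type (WT) mice and 2 from JMJD1B-/- mice, which lack the histone demethylase JMJD1B (gene Kdm3b) through a gene trap carried in the germ line and thus in every cell of the animal. Both genotypes were on the 129P2xC57BL/6J background and the labels name no agent given to either. The mice of the study were adults of both sexes, and the sex and age behind a single library are not given in the sources used here, nor is the gate by which HSPCs were purified.

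Primary granules, also called azurophil granules, are the first granules a neutrophil makes. They are filled at the promyelocyte stage with myeloperoxidase and with serine proteases that later kill and digest microbes, and transcription of their cargo stops as the cell moves on to the myelocyte stage, when genes of the secondary and tertiary granules take over. Transcripts of these genes are already found in granulocyte-monocyte progenitors, which belong to the HSPC compartment. C/EBPalpha, PU.1, MYB and RUNX1 with its partner CBFbeta are the transcription factors best known for switching these genes on. Among the 5 genes, Mpo encodes myeloperoxidase, the enzyme that makes hypochlorous acid. Elane, Prtn3 and Ctsg encode neutrophil elastase, proteinase 3 and cathepsin G, and Ms4a3 encodes a membrane-spanning protein used as a marker of granulocyte-monocyte progenitors.

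Values are RPKM, read numbers divided by transcript length and by library size, a scale on which levels of different genes can be set side by side. Estimated depth was 17.5 and 24.6 M reads (mega-reads) in WT replicates 1 and 2 and 6.1 and 21.0 M reads in JMJD1B-/- replicates 1 and 2, so JMJD1B-/- replicate 1 is the least precise library. The estimate is rough, since it rests on 5 to 15 genes per library against 2 to 7 for the next best depth, and read numbers given from it share this limit. Kdm3b itself had 31.0 and 24.3 RPKM in the WT libraries against 4.00 and 4.63 in the JMJD1B-/- libraries, as the labels state. Libraries also stood apart in ways the genotype does not cover. The 7 eosinophil marker genes summed to 6015 and 5366 RPKM in replicate 1 of WT and JMJD1B-/-, against 1149 and 1211 in replicate 2, and the 7 T and NK cell markers with values summed to 77.4 RPKM in JMJD1B-/- replicate 1 against 16.2 to 35.3 in the other libraries.

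All 5 granule genes were lower in both JMJD1B-/- libraries than in both WT libraries. Such a separation was found for 22.7% of the 11863 genes tested, and since the members were chosen on this contrast nothing is read from their count. Mpo had the highest level of the 5 in every library, with 131 and 79.0 RPKM in WT against 21.4 and 12.1 in JMJD1B-/-. Its mean was 105 ± 36.8 RPKM in WT and 16.7 ± 6.598 in JMJD1B-/- (SD, n = 2 libraries), a 6.27-fold lower level. On the log2(RPKM + 0.1) scale the difference was -2.65 with a standard error (SE) of 0.33. Each SE here comes from limma, which draws the spread of a gene toward that of other genes. The lowest WT library of Mpo stood 3.69-fold above its highest JMJD1B-/- library. In rank, Mpo moved from 288th and 554th of all genes in WT to 2993rd and 5514th in JMJD1B-/-.

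The serine protease genes were lower by about the same amount but differed in how well the JMJD1B-/- libraries matched each other. Ctsg had 56.5 and 47.6 RPKM in WT and 20.1 and 6.89 in JMJD1B-/-, a log2 difference of -2.13 (SE 0.44). Prtn3 had 40.1 and 31.8 RPKM in WT and 8.90 and 7.53 in JMJD1B-/-, a log2 difference of -2.11 (SE 0.22). Elane had 28.3 and 16.7 RPKM in WT and 9.21 and 2.06 in JMJD1B-/-, a log2 difference of -2.29 (SE 0.62). Prtn3 thus had the closest JMJD1B-/- libraries of the 5 genes, though the WT libraries of Ctsg and Ms4a3 lay closer together than its own. Elane had the widest pair in both genotypes, and its lowest WT library lay only 1.81-fold above its highest JMJD1B-/- library. Ms4a3 had 23.5 and 19.9 RPKM in WT and 6.11 and 2.31 in JMJD1B-/-, a log2 difference of -2.49 (SE 0.43). Its WT libraries lay close together and its JMJD1B-/- libraries differed 2.65-fold.

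**Figure D1:**
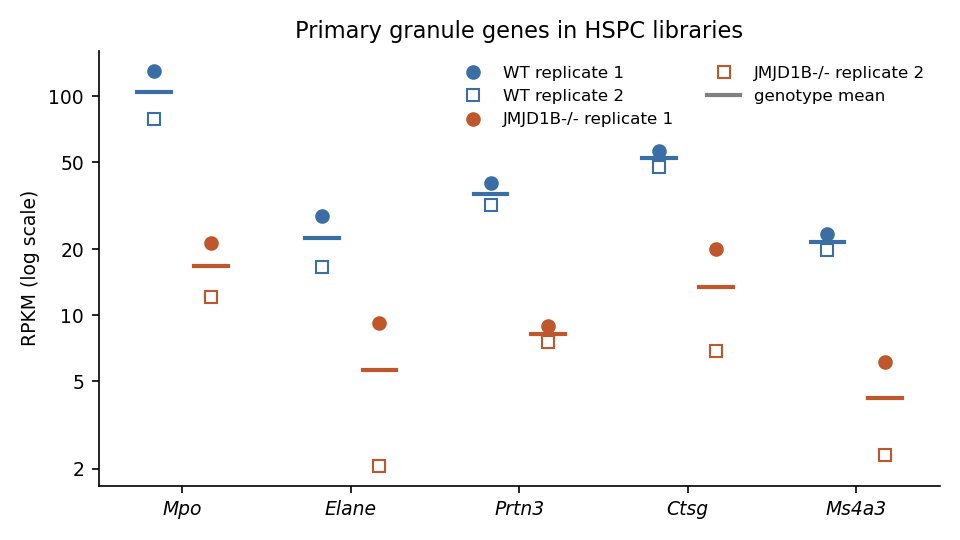
RPKM on a log axis of the 5 primary granule genes in each of the 4 HSPC libraries, with circles for replicate 1, squares for replicate 2 and bars for the mean of each genotype. All JMJD1B-/- points lie below all WT points of the same gene, and the gap is smallest for Elane.

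The 5 transcripts are made from promoters that can be set side by side. Because the members were lower together, the 250 bases before the annotated start of each gene are shown, from RefSeq on build GRCm38.p6, read 5′ to 3′ along the gene. A promoter was found for all 5 members. Capitals mark the letters GAGGAA (PU.1 and other ETS factors), AACNG (MYB), TGTGGT (RUNX), TTNNGNAA (C/EBP) and TATAA (TATA box), each searched on both strands.
Mpo, chr11:87793534-87793783, plus strand: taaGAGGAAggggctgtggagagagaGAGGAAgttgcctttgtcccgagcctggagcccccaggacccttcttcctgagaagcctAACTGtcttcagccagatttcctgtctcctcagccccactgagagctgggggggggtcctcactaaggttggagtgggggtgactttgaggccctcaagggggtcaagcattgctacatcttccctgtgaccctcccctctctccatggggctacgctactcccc
Prtn3, chr10:79879417-79879666, plus strand: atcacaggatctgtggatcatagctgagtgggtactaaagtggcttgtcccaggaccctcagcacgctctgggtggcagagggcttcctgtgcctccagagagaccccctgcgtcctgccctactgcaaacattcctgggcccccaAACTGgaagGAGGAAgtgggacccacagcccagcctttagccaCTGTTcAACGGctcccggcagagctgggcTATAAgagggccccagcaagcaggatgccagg
Elane, chr10:79886062-79886311, plus strand: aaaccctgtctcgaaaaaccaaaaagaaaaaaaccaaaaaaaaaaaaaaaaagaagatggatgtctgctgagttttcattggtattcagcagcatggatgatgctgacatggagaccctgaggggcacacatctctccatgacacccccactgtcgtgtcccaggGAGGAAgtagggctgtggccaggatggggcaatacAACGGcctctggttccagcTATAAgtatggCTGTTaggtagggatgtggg
Ctsg, chr14:56102575-56102824, minus strand: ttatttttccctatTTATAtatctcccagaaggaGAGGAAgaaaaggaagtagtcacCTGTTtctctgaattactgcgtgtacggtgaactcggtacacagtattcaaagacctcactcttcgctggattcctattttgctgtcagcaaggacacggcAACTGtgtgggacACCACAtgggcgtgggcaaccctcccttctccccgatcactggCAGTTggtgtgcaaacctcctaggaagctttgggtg
Ms4a3, chr19:11640852-11641101, minus strand: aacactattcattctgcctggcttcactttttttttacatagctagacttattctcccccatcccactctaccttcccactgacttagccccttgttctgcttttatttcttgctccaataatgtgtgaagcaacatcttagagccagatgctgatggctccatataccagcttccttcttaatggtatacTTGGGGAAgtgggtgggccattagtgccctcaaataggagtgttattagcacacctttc

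Prtn3 and Elane are next to each other on chromosome 10 and their promoters share the ETS letters, the MYB letters in the form AACGG and the TATA letters, in the same order. GAGGAA starts 95 bases before the start of Prtn3 and 85 bases before that of Elane. The letters AACGG follow at 55 and 50 bases, and TATAA at 32 and 31 bases, while further AACNG matches lie at different places. Mpo has 2 GAGGAA matches farther out, at 247 and 224 bases, and a single AACNG match. Ctsg has GAGGAA at 216 bases, 3 AACNG matches, the RUNX letters and a TATAA match on the reverse strand, 236 bases out, and Ms4a3 has only the C/EBP letters, at 59 bases. The GAGGAA letters were thus in 4 of the 5 promoters and in 23.3% of the 32851 promoters of the same length in RefSeq. AACNG was in 4 members and in 74.2% of all promoters, TATAA in 3 and in 22.8% (12.6% of the promoters of genes in the table), TGTGGT in 1 and in 14.0%, and TTNNGNAA in 1 and in 36.8%. These are matches of letters and not measured sites, and no letters of one motif overlapped another's in these promoters.

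The JMJD1B-/- libraries differed in how much of each transcript was left. Replicate 1 kept 20.4% of the WT mean of Mpo, 24.8% of Prtn3, 28.2% of Ms4a3, 38.6% of Ctsg and 40.9% of Elane. Replicate 2 kept 20.9% of Prtn3 but only 9.13% of Elane, 10.6% of Ms4a3, 11.5% of Mpo and 13.2% of Ctsg. Replicate 2 was therefore the lower of the JMJD1B-/- libraries for all 5 genes, by 1.18-fold for Prtn3 up to 4.48-fold for Elane. WT replicate 1 was the higher WT library for all 5, by 1.18-fold for Ms4a3 up to 1.70-fold for Elane. The size of each difference hence rests on the libraries used. Without JMJD1B-/- replicate 2 the log2 difference was -1.23 for Elane, -1.36 for Ctsg and -1.81 for Ms4a3, and without JMJD1B-/- replicate 1 it was -3.34, -2.89 and -3.17. Mpo kept a difference between -3.06 and -2.24 and Prtn3 one between -2.28 and -1.95 when any library was left out.

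At the estimated depth the lowest values were still built on reads. Ms4a3 had 37.3 reads per kilobase in JMJD1B-/- replicate 1 and Elane 43.2 in replicate 2, against 410 or more per kilobase for each of the 5 genes in the WT libraries. Each of the 5 genes passed the filter of a mean of 0.5 RPKM and was above 2 RPKM in every library.

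The order of the 5 levels changed with the library. Mpo was first everywhere, and Ctsg was second except in JMJD1B-/- replicate 2, where Prtn3 passed it by 7.53 to 6.89 RPKM. Ms4a3 and Elane held the last places in both WT libraries and in JMJD1B-/- replicate 2, and their order differed between the WT libraries. In JMJD1B-/- replicate 1, Elane, Prtn3 and Ms4a3 followed Ctsg at 9.21, 8.90 and 6.11 RPKM. The neighbours Elane and Prtn3 stood in a ratio of 0.707 and 0.525 in WT and of 1.03 and 0.273 in JMJD1B-/-. Elane had thus both the highest and the lowest share relative to Prtn3 in the JMJD1B-/- libraries.

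Summed over the 5 genes, the level was 279 and 195 RPKM in WT and 65.7 and 30.9 in JMJD1B-/-. This was 0.0709% and 0.0515% of all listed RPKM in WT and 0.0164% and 0.00696% in JMJD1B-/-. The JMJD1B-/- mean share was 19.1% of the WT one, and it was 11.4% without JMJD1B-/- replicate 1 and 26.8% without replicate 2. Mpo made up 46.9% and 40.5% of the sum in WT and 32.6% and 39.1% in JMJD1B-/-. The median log2 difference of the 5 genes was -2.29, and the median over all 11863 genes tested was -0.025. By size of the fall on this scale, Mpo was 54th, Ms4a3 77th, Elane 108th, Ctsg 136th and Prtn3 140th of all genes tested. RNA of whole cell populations was measured, so fewer promyelocyte-like cells and less of this RNA per cell cannot be told apart.

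Other genes tied to the primary granule, called other primary granule genes here, had smaller differences by their median. The list holds cargo, genes that process and pack it, and protease inhibitors, so not all of them are cargo. Of 14 with values, 12 were lower in the JMJD1B-/- mean and 2 higher, and their median log2 difference was -0.45. By limma, 4 of the 14 were lower at an unadjusted p under 0.05, where 6.33% of all genes tested were, and the smallest adjusted p of the list was 0.111. A test of each gene by itself, with equal variances assumed, gave 2. The count was 1 without WT replicate 1 and 7 without JMJD1B-/- replicate 1, where lower genes in the whole table numbered 177 and 1309, against 751 with all libraries. For 6 of the 14 the groups did not overlap and JMJD1B-/- was the lower, against 22.7% of all genes tested, and for 2 it was the higher, against 20.1%.

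By role, 3 of the 4 genes below this threshold were the inhibitors that hold granule and lysosomal proteases in check. Slpi, the secretory leukocyte protease inhibitor that blocks elastase and cathepsin G, had 7.59 and 8.42 RPKM in WT and 1.79 and 1.62 in JMJD1B-/-, a log2 difference of -2.17 (SE 0.32, unadjusted p = 0.000217, limma). Cst7, cystatin F, which inhibits the protease that activates the granule enzymes, had 12.3 and 12.1 RPKM in WT and 6.59 and 5.71 in JMJD1B-/- (log2 difference -0.98, unadjusted p = 0.00396, limma). Serpinb1a, an intracellular inhibitor of elastase, proteinase 3 and cathepsin G, had 28.2 and 23.5 RPKM in WT and 18.6 and 8.20 in JMJD1B-/- (log2 difference -1.05, unadjusted p = 0.0225, limma). The groups did not overlap for any of these inhibitors. No adjusted p of the list passed 0.05.

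Among the cargo genes the picture was mixed. Cd63, the tetraspanin of the primary granule membrane, had 35.0 and 19.6 RPKM in WT and 14.5 and 11.5 in JMJD1B-/- (log2 difference -1.02, unadjusted p = 0.0112, limma). Prss57, a further serine protease of these granules, had 4.79 and 1.74 RPKM in WT and 2.003 and 1.13 in JMJD1B-/-, and its groups overlapped. Lyz2, the lysozyme of myeloid cells, had 28.7 and 26.7 RPKM in WT and 27.3 and 12.9 in JMJD1B-/-, and its relative Lyz1 had log2 difference -0.55 (SE 0.45). Reads of Lyz1 and Lyz2, near-identical copies, may be split between them. Cd68 and Gusb, which many lysosomes carry, had log2 differences of -0.35 (SE 0.52) and -0.15 (SE 0.26). Bpi and Fcnb were not analysed here.

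The genes that pack and mature the cargo had log2 differences between -0.34 and 0.24. Srgn, serglycin, the proteoglycan core on which the proteases are stored, had 191 and 235 RPKM in WT and 190 and 159 in JMJD1B-/- (log2 difference -0.29, SE 0.20). Ctsc, the dipeptidyl peptidase that activates elastase, proteinase 3 and cathepsin G, had 7.91 and 7.78 RPKM in WT and 5.73 and 6.67 in JMJD1B-/- (log2 difference -0.34, SE 0.26). Neither passed an unadjusted p of 0.05 in limma. The chaperones Calr, Canx and Pdia3, of which the first pair handle the precursor of myeloperoxidase, had log2 differences of -0.14, 0.24 and 0.10. The groups did not overlap for Srgn and Ctsc, which were lower, nor for Canx and Pdia3, which were higher.

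Genes of the later neutrophil stages were mixed, and their summed level overlapped between genotypes, with 44.7 and 21.8 RPKM in WT and 107 and 38.0 in JMJD1B-/-. Of 9 genes tested from the list of secondary and tertiary granule genes, 4 were higher at an unadjusted p under 0.05 in limma, where 3.81% of all genes were. For 3 of them each JMJD1B-/- value exceeded each WT value, which held for 20.1% of all genes. Mmp25 is in both counts, but it entered the table and passed the filter on low values only through JMJD1B-/-, so it could appear only as higher and neither count is read as support. S100a9, a subunit of calprotectin, had 2.79 and 1.41 RPKM in WT and 8.01 and 10.9 in JMJD1B-/-, a log2 difference of 2.17 (SE 0.40, unadjusted p = 0.000837, limma). S100a8, the other subunit, had 7.24 and 4.74 RPKM in WT and 8.71 and 10.6 in JMJD1B-/- (unadjusted p = 0.0484, limma). Both subunits were above WT in each JMJD1B-/- library. Calprotectin is a protein of the cytosol and not granule cargo, so 2 of the 4 genes counted above are not granule genes in the strict sense.

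Retnlg, a resistin-like protein of maturing neutrophils, had 7.10 and 0.266 RPKM in WT and 46.5 and 6.45 in JMJD1B-/- (unadjusted p = 0.0389, limma), with groups that overlapped. Mmp25, a membrane metalloproteinase, had 0.541 and 0.155 RPKM in WT and 4.04 and 1.21 in JMJD1B-/-, and for the reason given no p is attached to it. Both genes were higher in replicate 1 of each genotype, the libraries with more eosinophil marker RNA. Itgam and Cybb, the integrin and oxidase subunits of later granules, had log2 differences of -0.56 (SE 0.67) and -0.34 (SE 0.91), with JMJD1B-/- replicate 1 above WT and replicate 2 below. Hp, haptoglobin, was lower in both JMJD1B-/- libraries, with 4.22 and 2.87 RPKM in WT and 2.30 and 0.805 in JMJD1B-/- (log2 difference -1.28, unadjusted p = 0.0558, limma), and Ngp, a granule protein of the myelocyte stage, had a log2 difference of 1.38 (SE 0.80). The count of 4 changed when a library was left out, and not always in the same direction as the count over all genes. All adjusted p of the list were above 0.05, the smallest being 0.166.

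**Figure D2:**
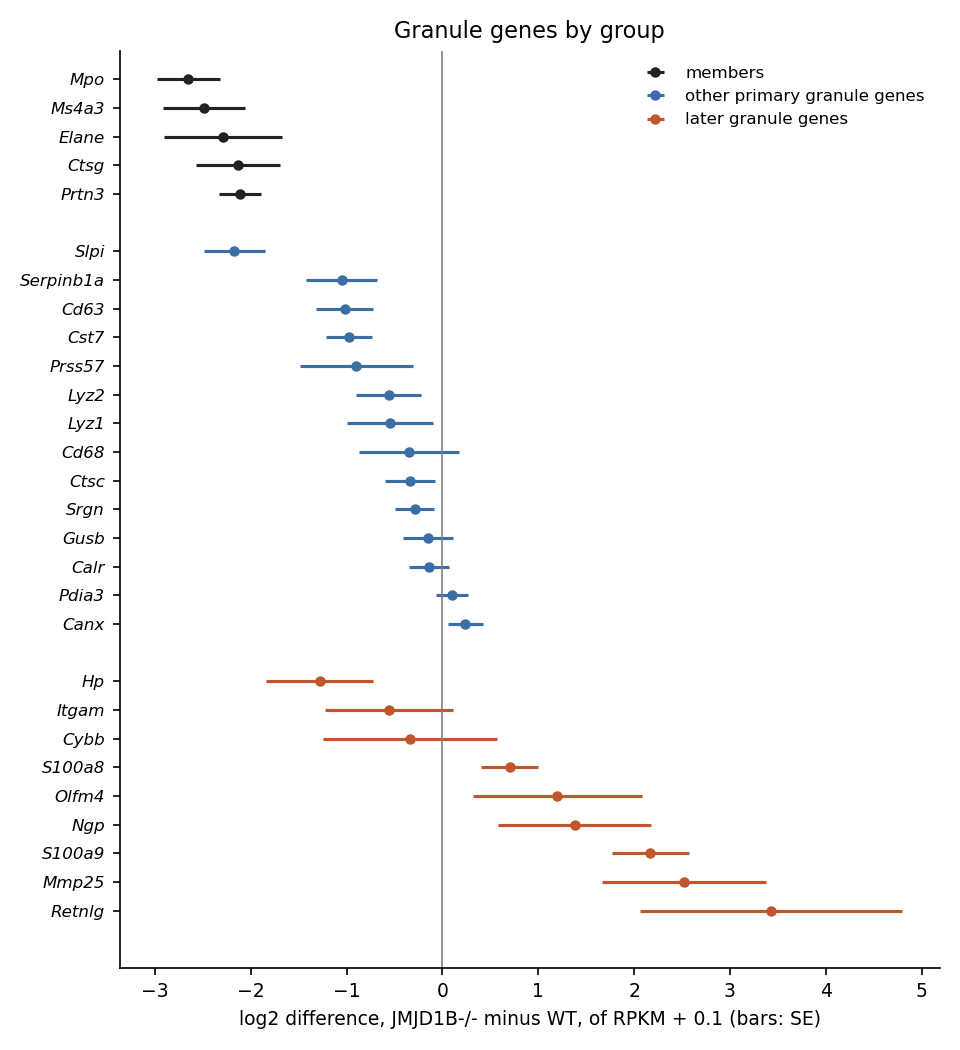
Log2 difference, JMJD1B-/- minus WT, of RPKM + 0.1 with its limma standard error for the 5 members, 14 other primary granule genes and 9 genes of later granules. The members lie between -2.65 and -2.11, most other primary granule genes between -1.05 and 0.24 with Slpi at -2.17, and the later genes on both sides of 0, among them Mmp25, which could appear only as higher.

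Transcription factors of granulocyte development were then read in the same libraries, and not all of them drive the primary granule genes. Cebpa, the factor required for the step into granulocyte-monocyte progenitors, had 13.4 and 12.7 RPKM in WT and 1.05 and 2.36 in JMJD1B-/-, a log2 difference of -2.96 (SE 0.41, unadjusted p = 0.000129, adjusted p = 0.0768, limma). It was lower in JMJD1B-/- replicate 1 than in replicate 2. The replicate 1 value rests on few reads, since 3 reads on 1 kb would equal 0.491 RPKM in this library. Any part of Cebpa in the lower level of the members was not tested. Gfi1, a repressor that favours neutrophils over monocytes, had 3.48 and 3.74 RPKM in WT and 2.35 and 0.732 in JMJD1B-/- (log2 difference -1.37, unadjusted p = 0.0464, limma). Irf8, which favours monocytes, had 45.9 and 55.0 RPKM in WT and 33.3 and 9.34 in JMJD1B-/- (log2 difference -1.50, unadjusted p = 0.0203, limma). Cbfb had 42.8 and 40.2 RPKM in WT and 26.7 and 29.5 in JMJD1B-/- (log2 difference -0.56, unadjusted p = 0.0157, limma).

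In all, 4 of 11 factors tested were lower at an unadjusted p under 0.05, against 6.33% of all genes tested, and the median log2 difference was -0.56. The factors whose letters were searched in the promoters did not move alike. Spi1, listed under its older name Sfpi1 and encoding PU.1, had 12.2 and 12.95 RPKM in WT and 10.4 and 4.39 in JMJD1B-/- (log2 difference -0.88, SE 0.39). Cebpb, a relative of Cebpa, had a log2 difference of -0.47 (SE 0.43). Runx1 had a log2 difference of -0.38 (SE 0.19), and Myb, at 191 and 185 RPKM in WT and 137 and 211 in JMJD1B-/-, one of -0.14 (SE 0.23). Cebpe, the factor of the later granules, had 6.59 and 0.591 RPKM in WT and 7.30 and 1.56 in JMJD1B-/- (log2 difference 0.70, SE 1.09), with overlapping groups and the higher value in replicate 1 of each genotype. The count of 4 was 1 without either WT library and 7 without JMJD1B-/- replicate 1, where 177, 272 and 1309 genes in the whole table were lower.

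Receptors for the growth factors of these cells were mostly lower. Of 8 tested, 6 were lower at an unadjusted p under 0.05 in limma, against 6.33% of all genes tested, with a median log2 difference of -1.33 and adjusted p of 0.259 or more. Csf3r, the receptor of the neutrophil growth factor G-CSF, had 5.64 and 4.62 RPKM in WT and 2.60 and 2.17 in JMJD1B-/- (log2 difference -1.07, unadjusted p = 0.0154, limma). Csf2rb and Csf2rb2, the signalling chains of the GM-CSF and interleukin receptors and close copies of each other, had log2 differences of -1.60 and -1.47, and the ligand-binding chain Csf2ra had -0.41 (SE 0.41). Csf1r, the receptor of the macrophage growth factor, had -1.80, Il6ra -1.19 and Flt3, the receptor of early progenitors, -1.84. Kit, the stem cell factor receptor found on most HSPCs, had 66.9 and 62.5 RPKM in WT and 51.6 and 92.7 in JMJD1B-/-, with overlapping groups. The count of 6 was 3 without WT replicate 2 and 0 without WT replicate 1, where the fit of limma to 3 libraries also called only 177 lower genes in the whole table against 751 with all libraries.

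**Figure D3:**
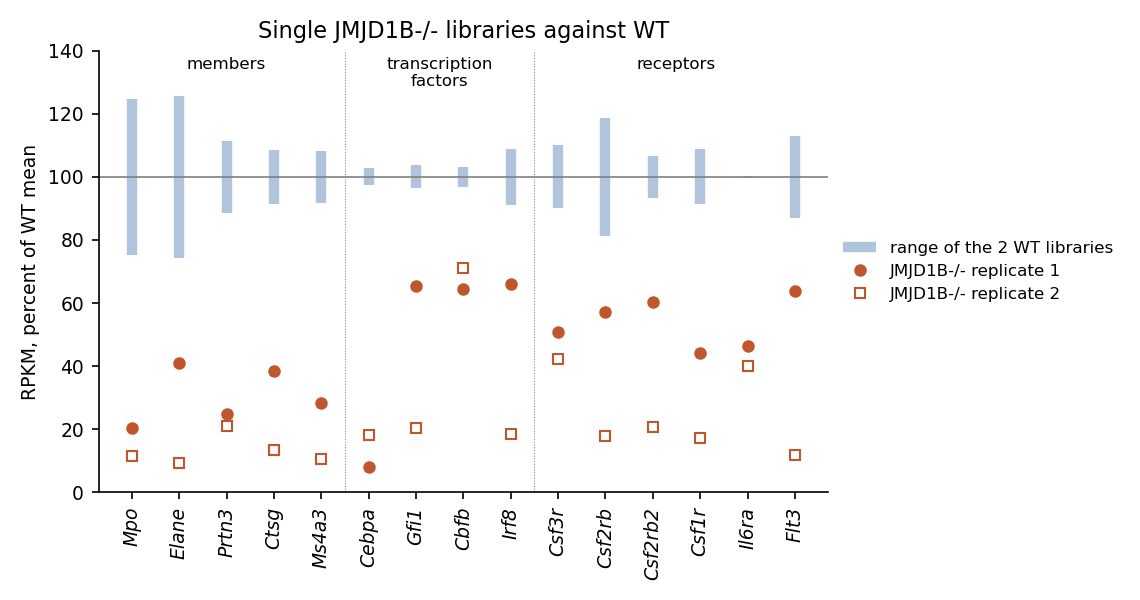
RPKM of each JMJD1B-/- library as a percent of the WT mean for the 5 members and for the transcription factors and receptors lower at an unadjusted p under 0.05, with a bar for the range of the 2 WT libraries. The members lie between 9.13% and 40.9%. For Cebpa, replicate 1 lies below replicate 2, at a value that rests on few reads.

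Genes in which mutations cause congenital neutropenia in people were lower by less in the median. Of 11 tested, 9 were lower and 2 higher in the log2 difference. Cxcr4, the receptor that holds neutrophils in the marrow, was the 1 gene lower at an unadjusted p under 0.05, where 6.33% of all genes tested were, with 56.1 and 74.9 RPKM in WT and 52.1 and 26.4 in JMJD1B-/- (unadjusted p = 0.0407, adjusted p = 0.477, limma). The median log2 difference of the 11 was -0.23. Ap3b1, a subunit of the adaptor that sorts granule cargo, had a log2 difference of -0.39 (SE 0.18), Srp54a of -0.28 (SE 0.24), Lyst of -0.75 (SE 0.33) and Lamtor2 of -0.31 (SE 0.34). Jagn1 and Hax1 were the higher ones, at 0.33 (SE 0.32) and 0.30 (SE 0.21), and Was had -0.23 (SE 0.19). Of the 11 genes, 4 were lower and 1 higher with groups that did not overlap, against 22.7% and 20.1% of all genes tested. Elane is itself the gene most often mutated in this disease and had a log2 difference of -2.29.

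Members were next compared with the genes beside them on the chromosome, taking the nearest protein-coding genes on each side in RefSeq, 3 each way. Of 24 such neighbours, 10 had values, and 2 of these were lower at an unadjusted p under 0.05 in limma, against 6.33% of all genes tested. Both lie directly beside a member, but they were the only neighbours of Ctsg and Ms4a3 with values, so nothing is read from their place. Both belong to the list of basophil and mast cell markers. Mcpt8, a basophil protease beside Ctsg on chromosome 14, had 111 and 172 RPKM in WT and 41.0 and 12.4 in JMJD1B-/-, a log2 difference of -2.61 (SE 0.51, unadjusted p = 0.00111, limma). Ms4a2, the beta chain of the IgE receptor beside Ms4a3 on chromosome 19, had 34.7 and 30.3 RPKM in WT and 5.85 and 2.51 in JMJD1B-/-, a log2 difference of -3.04 (SE 0.38, unadjusted p = 6.78e-05, limma). The ratio of Ms4a3 to Ms4a2 was 0.676 and 0.656 in WT and 1.04 and 0.917 in JMJD1B-/-. That of Ctsg to Mcpt8 was 0.509 and 0.277 in WT and 0.490 and 0.557 in JMJD1B-/-, with overlapping groups.

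Around Mpo, Prtn3 and Elane no neighbour with values passed an unadjusted p of 0.05 in limma. Epx, the eosinophil peroxidase and the closest relative of Mpo with values here, lies near it on chromosome 11 and had 189 and 52.9 RPKM in WT and 124 and 35.9 in JMJD1B-/- (log2 difference -0.59, SE 0.69), with the higher value in replicate 1 of each genotype. Tspoap1, directly beside Mpo, had a log2 difference of -0.68 (SE 0.35), Supt4a of -0.24, Rnf43 of 0.37 and Mks1 of 0.55. On either side of Prtn3 and Elane on chromosome 10, Ptbp1 had 84.7 and 92.3 RPKM in WT and 82.2 and 106 in JMJD1B-/- (log2 difference 0.08, SE 0.19). Med16 and R3hdm4 had log2 differences of -0.32 (SE 0.33) and -0.24 (SE 0.21).

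**Figure D4:**
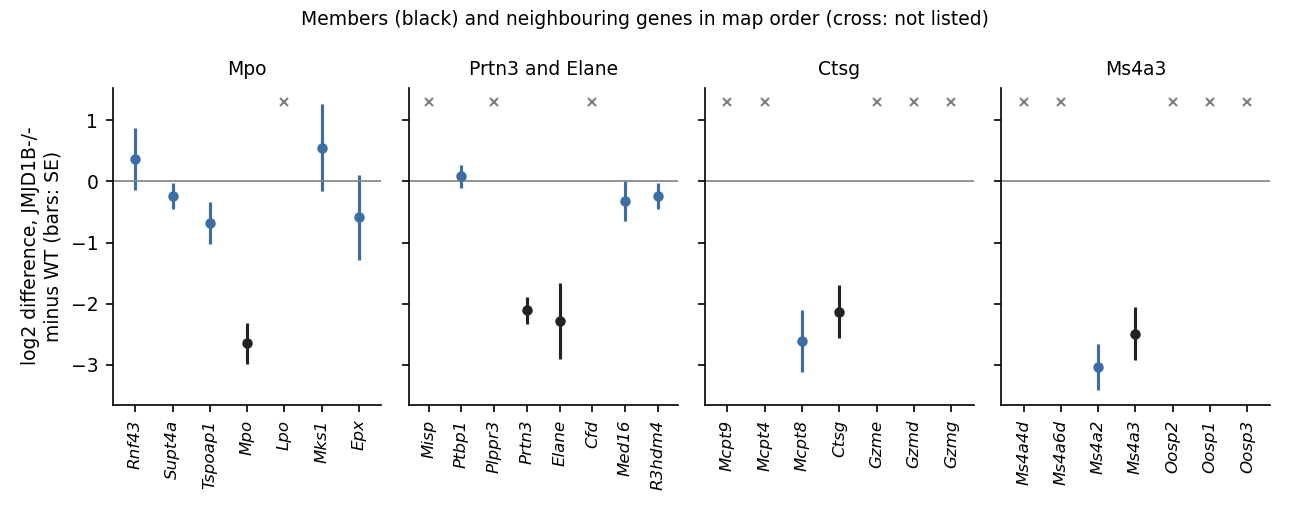
Log2 difference, JMJD1B-/- minus WT, with its limma standard error for the members (black) and their neighbouring protein-coding genes (blue) in map order. Crosses mark neighbours without values. Mcpt8 beside Ctsg and Ms4a2 beside Ms4a3 lie at -2.61 and -3.04, and the neighbours of Mpo, Prtn3 and Elane lie between -0.68 and 0.55.

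Relatives of the members by family were read next, and 6.33% of all genes tested were lower at an unadjusted p under 0.05. In the Ms4a family, Ms4a6c had 14.2 and 13.7 RPKM in WT and 5.72 and 1.83 in JMJD1B-/- (log2 difference -2.07, unadjusted p = 0.00335, limma) and Ms4a6b a log2 difference of -1.93 (unadjusted p = 0.0427, limma). Ms4a4c had -1.12 (SE 0.91) and Ms4a4b 0.99 (SE 0.97). Among the granule serine proteases, Prss34 of basophils had 246 and 258 RPKM in WT and 30.6 and 19.9 in JMJD1B-/-, a log2 difference of -3.35 (SE 0.23, adjusted p = 0.00637, limma). Gzmb of cytotoxic cells had 4.14 and 4.05 RPKM in WT and 4.97 and 4.36 in JMJD1B-/-, and Gzma, Gzmm and Mcpt2 were at or below 12.2 RPKM in every library with overlapping groups.

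The genes whose pattern over the 4 libraries was most like the mean pattern of the members were Card9, Ccl9, Ms4a6c, Cdh1, F13a1, Hk3, Csf1r, Alox5, Cyp11a1 and Trf. Their distances on the centred log2 scale were 0.36 to 0.61, where the median of the 8308 genes compared was 2.61 and the members themselves lay at 0.25 (Ms4a3) to 0.73 (Prtn3). Card9, the nearest, had 34.4 and 27.9 RPKM in WT and 8.34 and 4.95 in JMJD1B-/-. This is a description over 4 libraries, and the step between genotypes makes up most of the pattern.

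Markers of other cell types moved in the same libraries. At an unadjusted p under 0.05 in limma, 6.33% of all genes tested were lower and 3.81% higher. All 7 basophil and mast cell markers with values were lower at an unadjusted p under 0.05 in limma, and their sum was 505 and 576 RPKM in WT and 113 and 46.4 in JMJD1B-/-. Of 7 monocyte and macrophage markers, 5 were lower, and the sum was 105 and 133 RPKM in WT and 85.1 and 19.8 in JMJD1B-/-. Of 9 erythroid markers, 8 were higher, and the sum was 405 and 609 RPKM in WT and 1188 and 1760 in JMJD1B-/-. These shifts run with the genotype as the members do.

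Markers of stem and early progenitor cells summed to 212 and 172 RPKM in WT and 99.4 and 128 in JMJD1B-/-, with 4 of 10 lower at an unadjusted p under 0.05, against 6.33% of all genes tested. Cd34, which granulocyte-monocyte progenitors carry, had 42.9 and 43.6 RPKM in WT and 20.9 and 11.7 in JMJD1B-/- (log2 difference -1.46, unadjusted p = 0.00109, limma). Megakaryocyte markers summed to 677 and 615 RPKM in WT and 266 and 374 in JMJD1B-/-, with 4 of 6 lower at that threshold. The 7 eosinophil markers differed by replicate number and all their groups overlapped. Of 7 B cell markers only Cd79b had values, at 0.631 to 3.28 RPKM. The part that these shifts in other cell types have in the lower level of the primary granule genes was not tested.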

How the data were processed

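The 2 WT and 2 JMJD1B-/- RNA-seq libraries of HSPCs were used, of 35 samples in the series. The ChIP-seq samples were not analysed here. Per the labels, polyA RNA was made into libraries with a TruSeq kit, and the submitters' processing notes name Novoalign, TopHat2 and mm9 without a role. The counting program and annotation are not given in the sources used here. The authors deposited 1 table of RPKM values to which 1 had been added, with 12024 entries, each reaching at least 1 RPKM in some library. The 1 was subtracted, and entries of the 42 repeated names were averaged. The table has no read counts, and whole reads could not be recovered for most genes. Depth was estimated as the library size at which the values of some genes gave whole numbers of reads. Their spans in RefSeq (GRCm38.p6) were taken as transcript lengths, and ratios of values under 3 RPKM served only as a check. At these depths 3 reads on 1 kb would equal 0.122 to 0.491 RPKM, for counting error only. Symbols of 11901 names were found in RefSeq.

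Genes with a mean of at least 0.5 RPKM entered a linear model of log2(RPKM + 0.1), made by limma version 3.58.1 under R version 4.3.3 (trend, Benjamini-Hochberg adjustment over 11863 genes), and differences on this scale understate those of low genes. The fit was tested on simulated data. An exact permutation test of 2 against 2 libraries cannot go below p = 0.333, so none is given. Nothing in the sources says that the 2 libraries of a genotype came from separate animals beyond the term biological replicates. The SEs and p-values of limma combine the spread of a gene between these libraries with that of other genes. They are thus not a measure of the gene's own spread alone. Tables and figures were made with Python 3.11.15, pandas 2.3.3, numpy 2.4.6 and matplotlib 3.10.9.

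The members and lists were chosen with earlier results of these data known. Named genes were the members, all other primary granule genes, genes of the other lists at an unadjusted p under 0.05 with up to 4 more of the highest level, 3 neighbours on each side, relatives by family, the 10 nearest in pattern with a mean of at least 5 RPKM, and Kdm3b. Cebpe, Jagn1, Hax1, Was, Ltf, Camp and single markers were named after their values were seen, and the motifs were chosen without a rule. Alternatives were pseudocounts of 1 and 0.01, no filter, a mean of at least 1 RPKM, median-ratio scaling, quantile normalization, no trend, a gene-by-gene test, a replicate block, the highest entry of a name, and each library left out.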

Additional observations from a re-analysis of the deposited data

How the results depend on the processing

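The 5 members kept a lower level in JMJD1B-/- under every alternative that was run on them, that is the pseudocounts, both other scalings, the highest entry of a name and each library left out. Their median log2 difference was -3.06 without JMJD1B-/- replicate 1 and -1.81 without replicate 2, which are the extremes over the libraries left out. The 2 scalings moved the median over all genes from -0.025 to -0.03 and 0.017. With a library left out, the genes lower at an unadjusted p under 0.05 numbered 177 to 1819 and the higher ones 123 to 1258, against 751 and 452 with all libraries. The count of other primary granule genes that were lower, 4 in the report, ran from 1 to 7 and was 2 in the gene-by-gene test. The count of later granule genes that were lower ran from 0 to 3, and was 1 with a pseudocount of 1 and 1 with the replicate block. The later granule genes that were higher ran from 1 to 7, the transcription factors that were lower from 1 to 7 and the receptors that were lower from 0 to 6. The alternatives of these last counts were added after the data were seen. With a library left out, the lone library of its genotype was assumed to vary like the other group. Over 11863 genes the deviations of same-numbered libraries had a correlation of -0.0543 (2 pairs), so the numbers were not taken to pair the libraries, although eosinophil markers, Epx and Cebpe were higher in replicate 1 of both genotypes, and with a replicate block 571 genes were higher and 914 lower, among the latter 5 of the other primary granule genes. Depth limits genes near 0.491 RPKM in JMJD1B-/- replicate 1. Ltf and Camp had a mean under the filter of 0.5 RPKM and were not tested.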
